A study of Mus musculus with 8 samples.

Results

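The IFIT family of interferon-induced genes was examined in RNA sequencing of untreated primary mouse embryonic fibroblasts, which are fibroblast cultures grown from dissociated embryos. The members were taken by name: Ifit1, Ifit2, Ifit3 and Ifit3b, 4 of the 24972 genes in the deposited table. The table holds another 2 genes of the same cluster, Ifit1bl1 and Ifit1bl2, which are described beside them. Cells came from embryos at embryonic day 14.0, were passaged 2 times and received no treatment. The 8 libraries were 2 each of 4 genotypes: wild type (WT), heterozygous loss of Tfam (Tfam+/-), loss of both alleles of Zbp1 (Zbp1-/-), and the combination (Tfam+/-Zbp1-/-). The product of Tfam coats mitochondrial DNA and starts its transcription, and that of Zbp1 senses nucleic acids in unusual forms. Tfam+/- cells keep a working Tfam allele. No source used here says whether libraries of 1 genotype came from different embryos, so p-values measure only the spread between these libraries, which may be technical.

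IFIT proteins are built from helical tetratricopeptide repeats and are among the most strongly induced products of type I interferon. IFIT1 binds viral RNA whose cap lacks methylation of the ribose and blocks its translation, and members of the family also bind the translation factor eIF3. Interferon binds the receptor IFNAR1 and IFNAR2, the kinases JAK1 and TYK2 then phosphorylate proteins that include STAT2, which joins IRF9 in a complex that binds the interferon-stimulated response element of target promoters. Fibroblasts can make and answer type I interferon, but whether the family read it out in these cultures was not tested.

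The 6 genes lie together on chromosome 19 (RefSeq, GRCm38.p6, the assembly also called mm10), over 99.5 kb from the first base of Ifit2 to the last of Ifit1. Ifit2 spans 34550550 to 34576534, Ifit3 34583119 to 34588982, Ifit3b 34607530 to 34613403 and Ifit1 34640889 to 34650009, all on the plus strand. Ifit1bl1 (34592888 to 34662981) and Ifit1bl2 (34617046 to 34640827) are on the minus strand, and the RefSeq span of Ifit1bl1 covers Ifit3b, Ifit1bl2 and Ifit1. The sources used here do not state whether counting used strand, so values of genes that overlap are uncertain. Ifit3 and Ifit3b are near-identical copies: their coding sequences matched at 99.1% of aligned bases, and 61.8% of the 31-base words of the Ifit3 transcript also occur in Ifit3b (GENCODE M21). Reads from this pair could have been shared between them, which makes the level of either uncertain. The coding sequences of Ifit1 and Ifit1bl2 matched at 74.7%, with 9.16% of the words of Ifit1 found in Ifit1bl2, and Ifit1 shared 0 such words with Ifit2, Ifit3 or Ifit3b.

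The promoters are shown because those of the 3 members that were high in Tfam+/- hold the same short element, which was not in the windows of Ifit2. They come from RefSeq's promoter windows on GRCm38.p6, of 300 bases that begin 250 bases before each transcript start, and these starts lie inside the gene spans above for all but Ifit1. The core of the interferon-stimulated response element was searched as GAAANNGAAA on both strands (TTTCNNTTTC on the other), and matches stand in capitals. Each stretch is on the plus strand, 5′ to 3′. For Ifit1 (chr19:34640744-34640870) it is the interval of 127 bases between the GENCODE starts of Ifit1bl2 and Ifit1, which point away from each other. For Ifit3 (chr19:34583329-34583528), Ifit3b (chr19:34607757-34607956) and Ifit2 (chr19:34550494-34550693) it is the stretch that ends at the base before the start.
Ifit1: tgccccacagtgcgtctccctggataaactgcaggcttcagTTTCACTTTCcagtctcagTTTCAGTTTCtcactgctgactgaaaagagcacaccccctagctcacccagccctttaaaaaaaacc
Ifit3: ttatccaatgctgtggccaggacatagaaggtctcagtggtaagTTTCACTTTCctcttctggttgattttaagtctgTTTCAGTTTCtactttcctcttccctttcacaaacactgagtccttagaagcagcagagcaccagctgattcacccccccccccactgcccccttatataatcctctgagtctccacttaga
Ifit3b: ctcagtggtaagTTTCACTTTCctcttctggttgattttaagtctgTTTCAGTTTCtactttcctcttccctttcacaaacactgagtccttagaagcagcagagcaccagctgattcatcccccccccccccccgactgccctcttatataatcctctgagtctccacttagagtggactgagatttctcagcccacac
Ifit2: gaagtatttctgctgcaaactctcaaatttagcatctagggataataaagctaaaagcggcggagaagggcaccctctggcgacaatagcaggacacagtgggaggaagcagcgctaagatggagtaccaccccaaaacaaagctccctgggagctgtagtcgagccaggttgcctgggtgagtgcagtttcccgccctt

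Counted with the start site at 0, the matches of Ifit1 lie at -104 to -95 and -85 to -76. Those of Ifit3 lie at -156 to -147 and -122 to -113, and those of Ifit3b at -188 to -179 and -154 to -145. The windows of Ifit3 and Ifit3b matched at 259 of 274 aligned bases. Both Ifit2 windows held 0 exact matches to the core. The gamma-activated site, searched as TTCNNNGAA, was in 1 window of these genes, the upstream window of Ifit2, at -241 to -233. Neither annotated start of Ifit2 is close to its protein: in GENCODE the coding sequence begins 19.7 kb downstream of the first exon, and sequence next to that coding start is not in these windows. Ifit1bl2 reads the interval it shares with Ifit1 in the other direction and so holds the same pair of matches, at -70 to -61 and -51 to -42 from its own start. Ifit1bl1 held 1 match in each of its windows.

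Of all 32851 promoter windows in the table, 3.44% held the core and 0.225% held it 2 or more times. Among tested genes with a window, 385 of 10384 (3.71%) held it, against 25 of the 56 genes called higher in Tfam+/- than in WT that had one (44.6%) and 0 of the 15 called lower. Those 56 were called in these same libraries and include Ifit1, Ifit3 and Ifit3b. The shares describe these lists, and no difference between them was tested. With 1 mismatch allowed among the 8 fixed bases, 4 of 4 members matched, as did 35.4% of all windows. A match describes the letters of a window and does not show that a factor binds there.

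**Figure D1:**
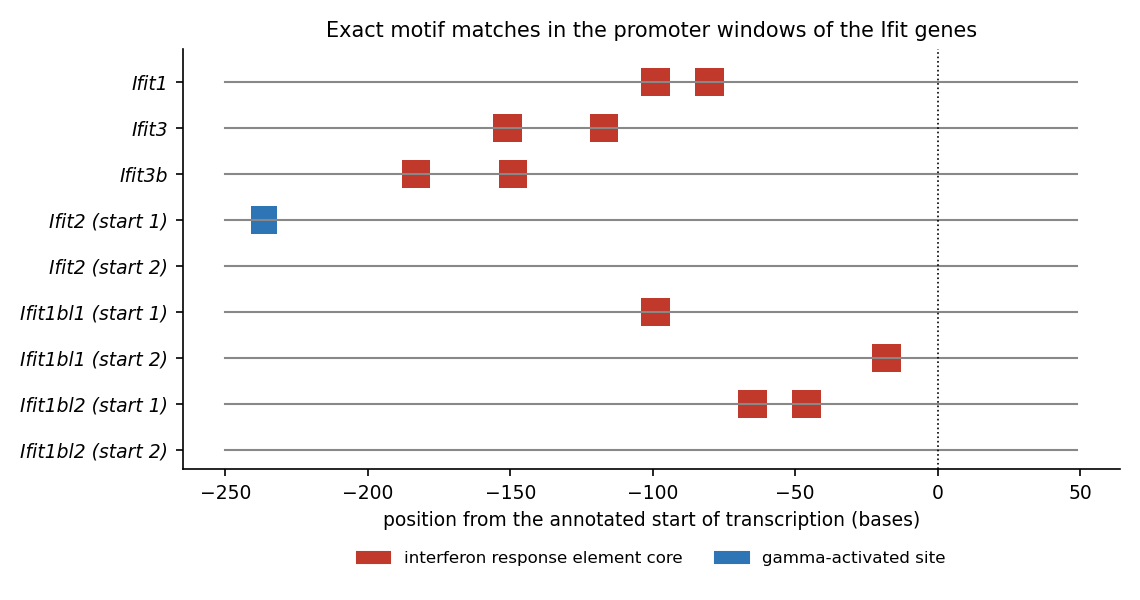
Positions of exact matches to the interferon response element core (red) and to the gamma-activated site (blue) in the promoter windows of the 6 Ifit genes, in bases from each annotated start of transcription (0). Ifit1, Ifit3 and Ifit3b have 2 core matches each, while both windows of Ifit2 have 0.

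All levels are normalized counts as the authors deposited them, of unstated scaling, and library totals ran from 16752835 to 18303036. Tfam, the targeted gene, was at 278 and 365 in Tfam+/- and at 424 and 375 in Tfam+/-Zbp1-/-, below the range of 471 to 675 in the other 4 libraries. Zbp1 was at 64.6 and 69.8 in Tfam+/- and at 0.86 to 7.34 elsewhere, so that the WT level is too low to check the Zbp1-/- label. All 8 fibroblast markers were expressed, with summed values of 333047 to 548630. Markers of plasmacytoid dendritic cells, the professional producers of interferon, were listed at 0 in all libraries. Tfam+/- replicate 1 and Zbp1-/- replicate 2 stood apart from the replicates of their genotypes in a shared way. Replicates correlated at 0.973 for Tfam+/- and 0.975 for Zbp1-/- on the log2 scale, against 0.992 for both other genotypes. The differences of replicate 1 from replicate 2 in Tfam+/- and in Zbp1-/- correlated at -0.698 over the tested genes. These correlations alone do not say which library of a pair is the odd 1. The calls of the members are therefore given from all 8 libraries and from the other 6, a fit chosen after seeing the data, and changes of other genes are from all 8 unless the fit of 6 is named. In the fit of 6, the lone libraries of Tfam+/- and Zbp1-/- are taken to vary as the pairs of WT and of the double mutant do.

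Ifit1, the sensor of incompletely capped RNA, was at 119.7 and 115 normalized counts in the WT libraries and at 869.8 and 1375 in the Tfam+/- libraries. It was at 153 and 116 in Zbp1-/- and at 252 and 258 in Tfam+/-Zbp1-/-. The genotypes therefore fell into 3 levels, with WT and Zbp1-/- overlapping at the bottom, the double mutant between, and Tfam+/- well above both. The lower of the Tfam+/- values belongs to replicate 1, which stands apart, and it was still above every value outside that genotype.

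Ifit3 was at 144 and 175 in WT and at 1001 and 1083 in Tfam+/-. It was at 225 and 235 in Zbp1-/- and at 275 and 301 in Tfam+/-Zbp1-/-. The order was WT, Zbp1-/-, double mutant, Tfam+/-, and no pair of genotypes overlapped. The Tfam+/- replicates were close to each other, including the library that stands apart. Its copy Ifit3b was lower, at 55.9 and 34.2 in the WT libraries, 329 and 325 in those of Tfam+/-, 48.3 and 54.2 in those of Zbp1-/- and 74.4 and 104 in the double mutant. WT and Zbp1-/- overlapped for Ifit3b, and the double mutant lay above them and below Tfam+/-. Ifit3b was at 0.195 to 0.390 of the Ifit3 value over the 8 libraries, with the lowest and the highest ratio both in WT, so that no genotype had a ratio of its own.

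Ifit2, whose protein is linked to cell death as well as to antiviral defence, did not follow this pattern over all 8 libraries. It was at 561 and 610.0 in the WT libraries, 561 and 916 in those of Tfam+/-, 616 and 415 in those of Zbp1-/- and 788 and 819 in the double mutant. Here Tfam+/- spanned from the WT level to above the double mutant. The lower values of Tfam+/- and of Zbp1-/- were those of the libraries that stand apart. Without those libraries the order was WT, Zbp1-/-, double mutant, Tfam+/-, as for Ifit3, with 1 library left for Tfam+/- and for Zbp1-/-. Over all 8 libraries the log2 values of Ifit2 correlated with those of Ifit1 at 0.546 and of Ifit3 at 0.382. Over the other 6 these correlations were 0.875 and 0.869. The ratio of Ifit2 to Ifit1 within a library was 4.69 and 5.29 in WT, 4.03 and 3.57 in Zbp1-/- and 3.13 and 3.18 in the double mutant. In Tfam+/- it was 0.644 and 0.666. The ratio differed little between the Tfam+/- replicates, although Ifit1 and Ifit2 themselves differed between those libraries.

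The other genes of the cluster were near the bottom of the range. Ifit1bl1 was at 14.9 and 36.0 in Tfam+/- and at 15.4 to 35.1 in the other 6 libraries, so that the Tfam+/- pair spanned all of them. Ifit1bl2 was at 11.4 and 11.9 in the WT libraries, 6.77 and 13.1 in those of Tfam+/-, 7.36 and 11.2 in those of Zbp1-/- and 20.8 and 21.6 in the double mutant, above all others. Thus Ifit1bl2 lay on both sides of its WT values in Tfam+/-, where Ifit1 was at its highest. By its GENCODE start Ifit1bl2 shares its upstream interval and both core matches with Ifit1. Its RefSeq span, which ends at 34640827, covers these matches instead. The ratio of Ifit1bl2 to Ifit1 was 0.0952 and 0.103 in WT and 0.00778 and 0.00955 in Tfam+/-.

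**Figure D2:**
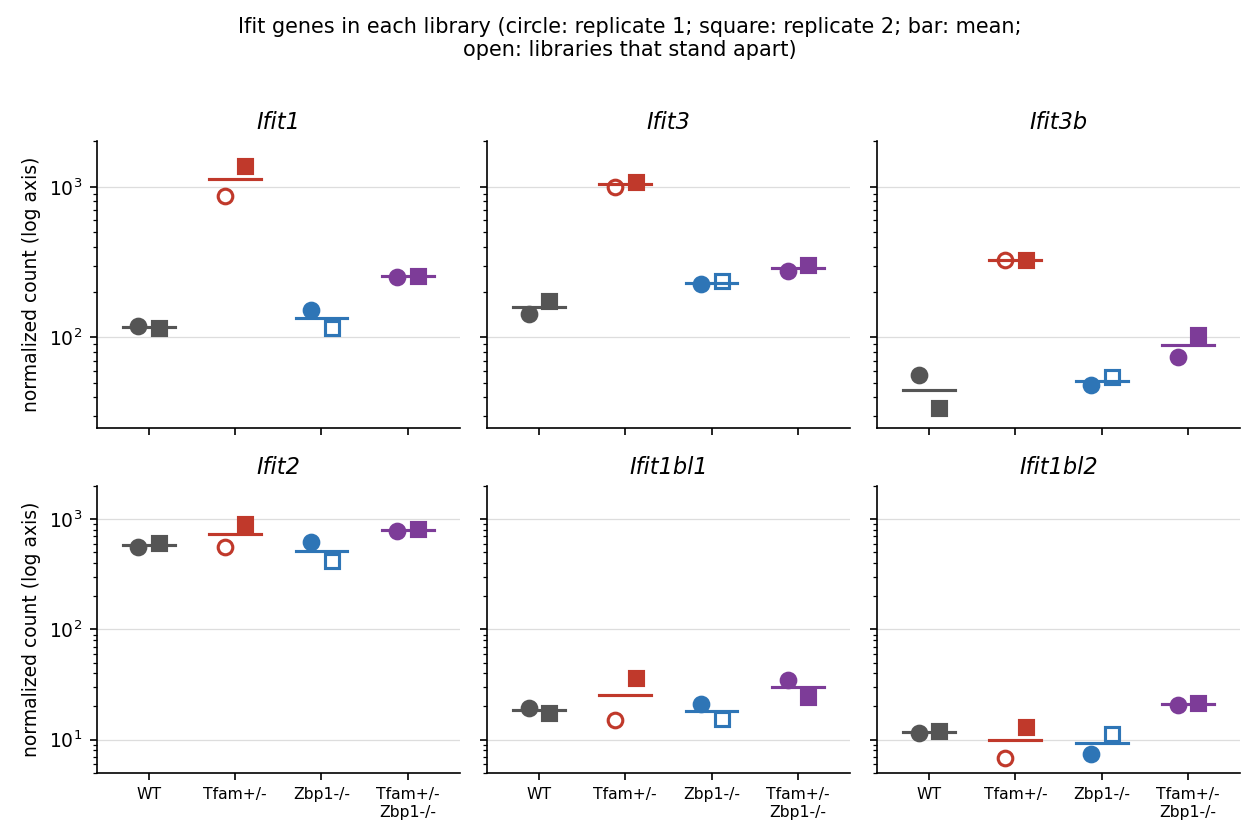
Normalized counts (log axis) of the 6 Ifit genes in each library, by genotype; circles are replicate 1, squares replicate 2, bars the mean of 2, and open symbols Tfam+/- replicate 1 and Zbp1-/- replicate 2, which stand apart. The upper and lower rows have different axis ranges; Ifit1, Ifit3 and Ifit3b are highest in both Tfam+/- libraries, while Ifit2 at 561 and 916 spans from the WT to above the double mutant.

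Levels of different genes were compared per kilobase of the longest GENCODE transcript. In WT, Ifit2 was highest at a mean of 153 normalized counts per kb (147 and 160.0 in the libraries), then Ifit3 at 91.4 (82.2 and 100.5), Ifit1 at 44.3 (45.1 and 43.4) and Ifit3b at 22.5 (28.0 and 17.1). Ifit1bl1 at 8.44 and Ifit1bl2 at 3.45 were last, and the libraries of neighbours in this order did not overlap. In Tfam+/- the order changed: Ifit3 was highest at 597 per kb (574 and 621), followed by Ifit1 at 423 (327 and 518), Ifit2 at 193 (147 and 240.0) and Ifit3b at 163 (164 and 162). Ifit2 and Ifit3b overlapped in that genotype. In the double mutant Ifit2 was again highest, at 210.5 per kb, ahead of Ifit3 at 165, Ifit1 at 95.9 and Ifit3b at 44.7.

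The effect of losing 1 Tfam allele was measured by Tfam+/- against WT. Changes are differences of log2(normalized count + 1), tested with limma over 13267 genes and called at an adjusted p under 0.05. Ifit1, Ifit3 and Ifit3b rose, and Ifit2 did not pass the threshold, so 3 of 4 members were called, against 0.731% of all tested genes (in either direction, as for all such shares here). Ifit1 rose by a log2 change of 3.21 ± 0.23 (SE; limma, adjusted p 0.0032), or 9.24-fold on this scale. Ifit3 rose by 2.71 ± 0.14 (limma, adjusted p 0.0012), or 6.53-fold. Ifit3b rose by 2.87 ± 0.27 (limma, adjusted p 0.0081), or 7.32-fold. Tested as a sum, which is free of how reads are shared within the pair, Ifit3 and Ifit3b rose by 2.74 ± 0.12 (limma, adjusted p 0.00056). The call of Ifit3 held without any 1 of the 8 libraries, that of Ifit1 was lost without WT replicate 1 (3.23, limma, adjusted p 0.060) or WT replicate 2 (3.18, adjusted p 0.058), and that of Ifit3b without WT replicate 2 (2.53, adjusted p 0.062).

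For Ifit2 the change was 0.29 ± 0.27 (limma, adjusted p 0.59), and single libraries moved it from -0.06 without Tfam+/- replicate 2 to 0.65 without Tfam+/- replicate 1. Ifit2 was called in the other 6 libraries, at 0.65 ± 0.07 (limma, adjusted p 4.3e-06), so that all 4 members were then called higher, against 15.4% of tested genes. The other members moved little in that fit, to 3.54 for Ifit1, 2.76 for Ifit3 and 2.86 for Ifit3b. Ifit2 was thus called or not depending on the library, and in neither fit was its change near those of the other 3. Ifit1bl1 (0.31 ± 0.43) and Ifit1bl2 (-0.27 ± 0.38) did not pass the threshold in either fit. The median over the 4 members was 2.79, beside -0.01 over all tested genes.

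What the absence of Zbp1 does in Tfam+/- cells was measured by Tfam+/-Zbp1-/- against Tfam+/-. Ifit1, Ifit3 and Ifit3b were lower in the double mutant, again 3 of 4 members, against 5.64% of all tested genes. Ifit1 fell by 2.10 ± 0.23 on the log2 scale (limma, adjusted p 0.0053), or 4.28-fold lower. Ifit3 fell by 1.85 ± 0.14 (limma, adjusted p 0.0025), or 3.61-fold lower, and Ifit3b fell by 1.88 ± 0.27 (limma, adjusted p 0.011), or 3.68-fold lower. These 3 calls were lost without either library of the double mutant, with changes of -2.12 to -1.64 and adjusted p of 0.053 to 0.11, where 1 library alone stands for that genotype. Ifit2 was at 0.16 ± 0.27 (limma, adjusted p 0.74). Its change in the other 6 libraries was -0.19 ± 0.07 (limma, adjusted p 0.037), so that 4 of 4 members were called lower, against 43.6% of tested genes, and the direction of Ifit2 depended on Tfam+/- replicate 1.

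Markers of macrophages and other leukocytes moved with this fall. Their 9 genes, all tested and none at 0, summed to 5119 to 5588 in Tfam+/-, 4448 to 4479 in WT, 2611 to 2867 in Zbp1-/- and 2275 to 2319 in Tfam+/-Zbp1-/-. In the double mutant against Tfam+/-, 8 of 9 were called lower, against 5.64% of all tested genes, with a median log2 change of -1.19. In Tfam+/- against WT 0 of 9 were called (limma; 4 at an unadjusted p under 0.05), against 0.731% of tested genes, with a median of 0.29. The medians in the fit of 6 were -1.18 and 0.245 in these comparisons. For the interaction described next, 0 of 9 were called (limma; 7 at an unadjusted p under 0.05), against 0.663% of tested genes. The median interaction was -0.68, and -0.71 in the fit of 6. The sums were lower in the double mutant than in WT, and the IFIT members were higher. What part such cells had in the IFIT changes was not tested. In these bulk samples fewer cells of a type and less RNA per cell cannot be told apart.

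The interaction asks whether the Tfam effect differs between cells with and without Zbp1: it takes the WT to Tfam+/- change away from the change that the double mutant shows against Zbp1-/-. It was called, and negative, for Ifit3 at -2.39 ± 0.20 (limma, adjusted p 0.015) and for Ifit1 at -2.28 ± 0.33 (limma, adjusted p 0.047), 2 of 4 members against 0.663% of tested genes. For Ifit3b it was -2.10 ± 0.38 and missed the threshold (limma, adjusted p 0.079), while for the sum of Ifit3 and Ifit3b it was -2.32 ± 0.17 (limma, adjusted p 0.013). For Ifit2 it was 0.37 ± 0.38 (limma, adjusted p 0.52). In the other 6 libraries 3 of 4 members were called (Ifit1 -2.80, Ifit3 -2.42, Ifit3b -2.01), against 19.1% of tested genes, and Ifit2 was at -0.26 (limma, adjusted p 0.074). Leaving out 1 library ended calls more often than it moved sizes: the Ifit1 value ranged from -2.61 to -1.95, with the call lost in 6 cases, all but those of the Tfam+/- libraries. The Ifit3 value ranged from -2.53 to -2.25, with the call lost in 5 cases: without either WT library, either library of the double mutant, or Zbp1-/- replicate 2. Expressed as a share of the log2 rise in Tfam+/-, the difference of the double mutant from WT was 34.6% for Ifit1, 31.5% for Ifit3 and 34.6% for Ifit3b. For Ifit2, whose rise was 0.29, it was 156%. These shares count from WT and not from Zbp1-/-. Zbp1-/- itself differed from WT by 0.54 for Ifit3, 0.18 for Ifit1, 0.22 for Ifit3b and -0.21 for Ifit2.

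The remaining comparisons ask how far the double mutant still differs from its controls, and whether Zbp1 loss alone matters. All 3 use libraries of the comparisons above, so they are not independent of them. In Tfam+/-Zbp1-/- against WT, Ifit3 was called higher, at 0.85 ± 0.14 (limma, adjusted p 0.043), 1 of 4 members against 1.38% of tested genes. Ifit1 was at 1.11 ± 0.23 (limma, adjusted p 0.085), Ifit3b at 0.99 ± 0.27 (adjusted p 0.17) and Ifit2 at 0.46 ± 0.27 (adjusted p 0.56), and for each of the 4 members both libraries of the double mutant were above both of WT. In the other 6 libraries 4 of 4 were called higher, against 44.8% of tested genes, with the same sizes, since the libraries left out belong to neither genotype. The Ifit3 call in all 8 libraries was lost without any 1 of the 6 libraries outside Tfam+/- (0.71 to 1.00) and after rescaling with trimmed-mean factors (0.74, limma, adjusted p 0.065), and that rescaling lowered the typical change in this comparison by 0.12.

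In Tfam+/-Zbp1-/- against Zbp1-/-, which is the Tfam effect without Zbp1, 0 of 4 members were called, against 0.415% of tested genes. The changes were 0.93 ± 0.23 for Ifit1, 0.32 ± 0.14 for Ifit3, 0.77 ± 0.27 for Ifit3b and 0.67 ± 0.27 for Ifit2, with adjusted p of 0.19, 0.43, 0.31 and 0.39 (limma), and unadjusted p under 0.05 for 3 of the 4. All 4 were called higher in the other 6 libraries (0.73, 0.35, 0.86 and 0.38 in the same order), against 23.4% of tested genes. Ifit1bl2 was also called in that fit, at 1.41 ± 0.44 (limma, adjusted p 0.027), against 1.14 ± 0.38 (adjusted p 0.29) in all 8 libraries. In Zbp1-/- against WT 0 of 4 were called, against 1.06% of tested genes, with changes of 0.18 for Ifit1, 0.54 for Ifit3, 0.22 for Ifit3b and -0.21 for Ifit2 and an unadjusted p under 0.05 for Ifit3 alone. In the other 6 libraries Ifit1 (0.38 ± 0.11; limma, adjusted p 0.015) and Ifit3 (0.50 ± 0.12; adjusted p 0.0040) were called higher, 2 of 4 against 34.3% of tested genes, a share near the background.

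**Figure D3:**
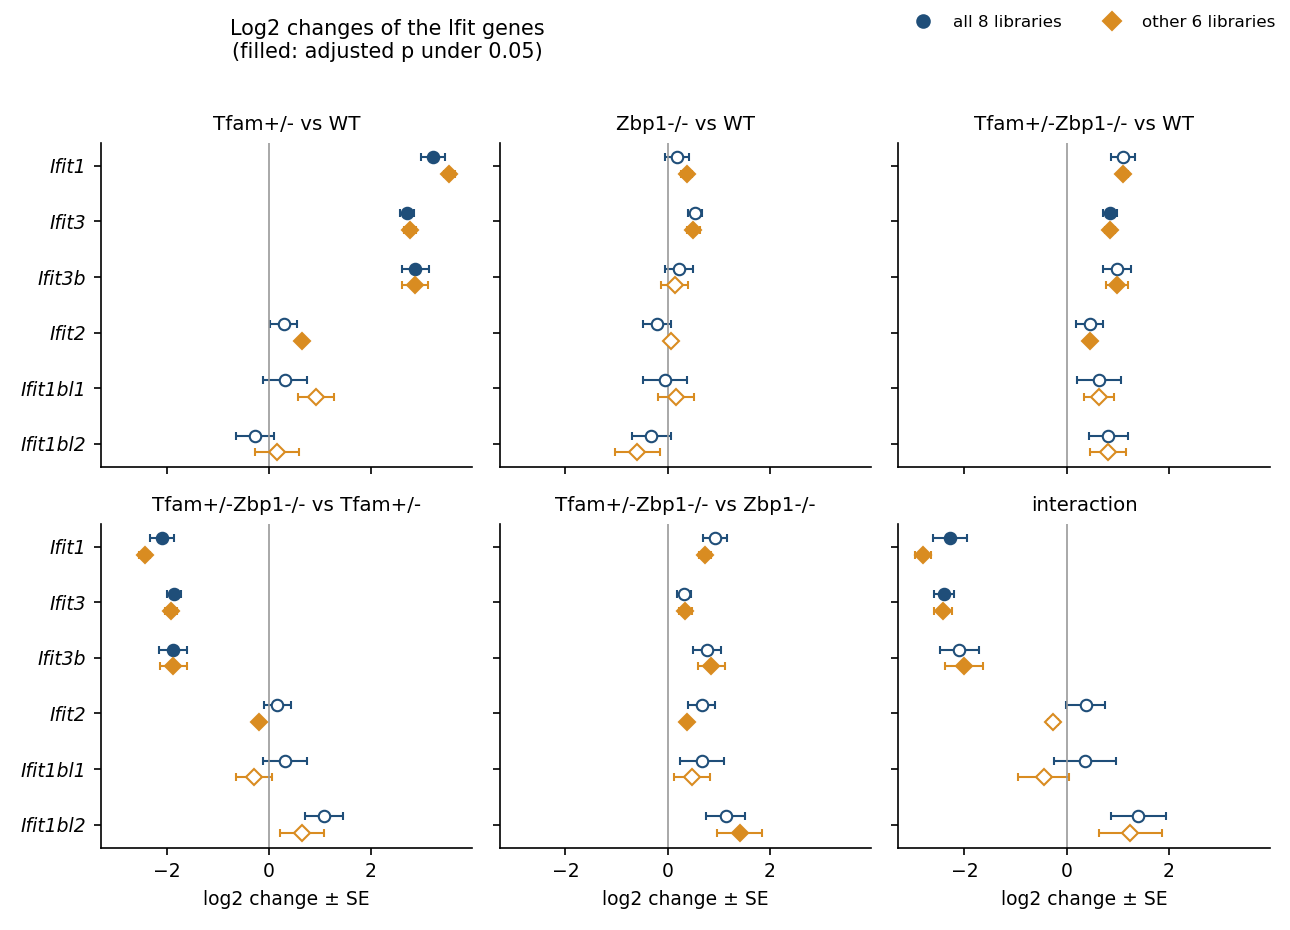
Log2 change ± SE (x axis) of the 6 Ifit genes in the 6 comparisons, from all 8 libraries (blue circles) and from the other 6 (orange diamonds); filled symbols have an adjusted p under 0.05. Ifit1, Ifit3 and Ifit3b are at 2.71 to 3.21 in Tfam+/- against WT and at -2.10 to -1.85 in the double mutant against Tfam+/- in all 8 libraries, while Ifit2 is at 0.29 and 0.16.

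Within 5 RefSeq genes on either side of the cluster, the measured genes were Fas, Ch25h, Lipa, Slc16a12 and Pank1. Of these, 0 were called in Tfam+/- against WT in all 8 libraries (limma), with an unadjusted p under 0.05 for Ch25h alone. Fas, the death receptor, Lipa, a lysosomal lipase, and Pank1, a kinase of coenzyme A synthesis, did not pass the threshold in Tfam+/- against WT (log2 changes -0.08, -0.06 and -0.43) or in the double mutant against Tfam+/- (0.50, 0.19 and 0.74). In the fit of 6, Fas (0.39; limma, adjusted p 0.010) and Pank1 (0.44; adjusted p 0.0087) were called higher in the double mutant against Tfam+/-, and Lipa (0.13; adjusted p 0.0497) in Tfam+/- against WT. Ch25h, which makes the antiviral sterol 25-hydroxycholesterol and is itself induced by interferon, was at 145 and 133 in the WT libraries, 209 and 203 in those of Tfam+/-, 165 and 171 in those of Zbp1-/- and 86.9 and 87.0 in the double mutant. No pair of genotypes overlapped, and the double mutant was lowest, below WT. Its change in Tfam+/- against WT was 0.56 ± 0.13 (limma, adjusted p 0.18), and 0.54 in the other 6 libraries (adjusted p 0.022). It fell by 1.23 ± 0.13 in the double mutant against Tfam+/- (limma, adjusted p 0.0044), and the interaction was -1.51 ± 0.18 (adjusted p 0.026). The fall lost its call without either library of the double mutant (limma, adjusted p 0.068 and 0.070), and the interaction without any 1 of 7 libraries, Tfam+/- replicate 2 excepted. Both were called in the fit of 6, at -1.21 and -1.46. Slc16a12, a transporter, moved the other way, by 1.73 ± 0.33 in the double mutant against Tfam+/- (limma, adjusted p 0.032), a call lost without either WT library, either library of the double mutant, or Tfam+/- replicate 1 (1.36 to 1.80), and made in the fit of 6 (1.36). Of 6 neighbours with a promoter window, which include the unmeasured Gm31417, 0 held the response element core.

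**Figure D4:**
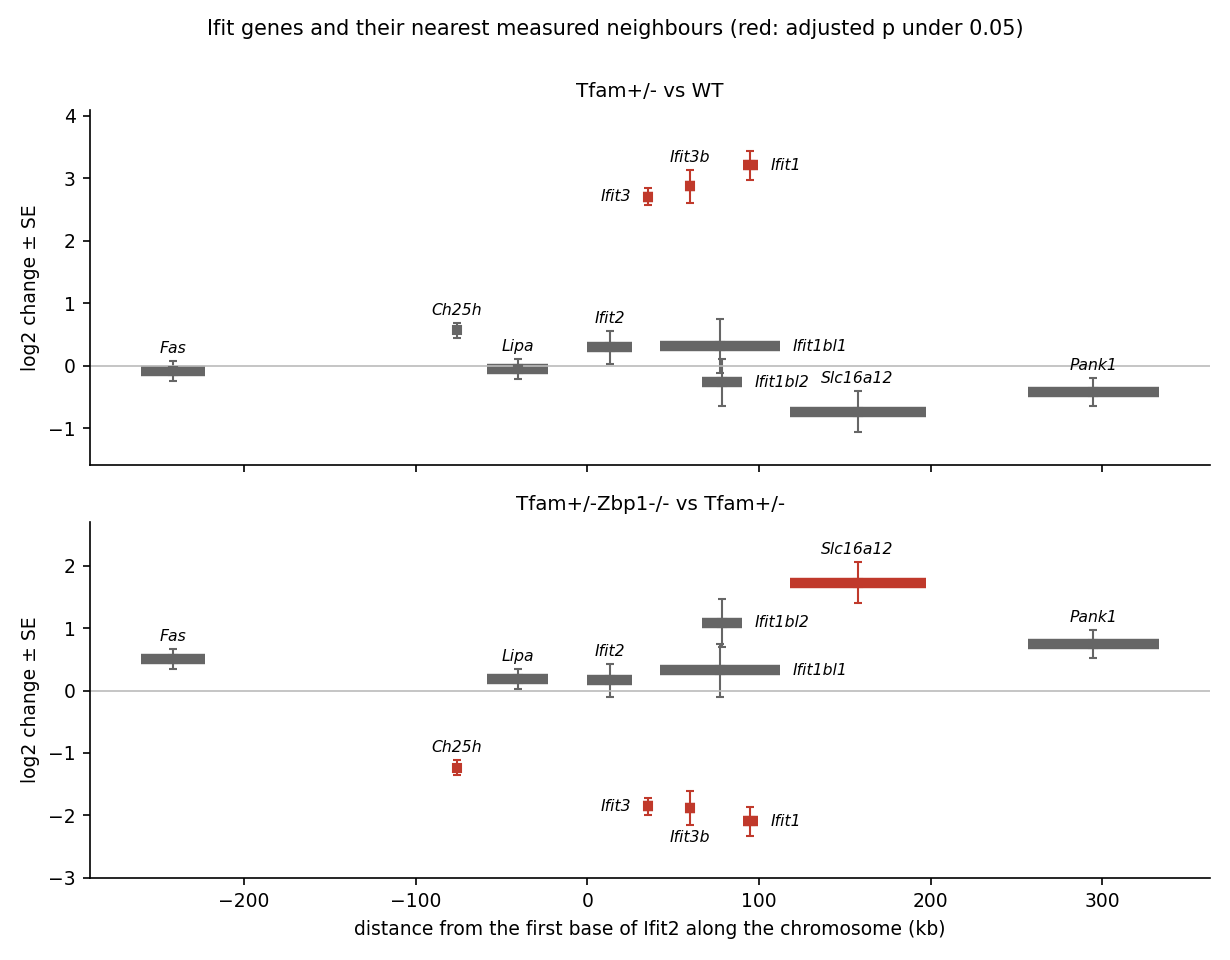
Log2 change ± SE (y axis, all 8 libraries) of the Ifit genes and their nearest measured neighbours against distance along the chromosome from the first base of Ifit2 (kb); bars span each gene, and red marks an adjusted p under 0.05. In Tfam+/- against WT (upper panel) Ifit3, Ifit3b and Ifit1 stand at 2.71 to 3.21 while Ifit2 and the flanking genes lie between -0.74 and 0.56.

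Of 11 genes that carry or limit interferon signalling to the Ifit promoters, 4 were called higher in Tfam+/- than in WT and 0 lower (0.731% of all tested genes), and 4 were called lower in the double mutant than in Tfam+/- and 1 higher (5.64%). The same 4 genes made up both counts: Stat2 and Irf9, parts of the complex that binds the response element, Irf7, the factor that amplifies interferon transcription, and Usp18, which shuts off the receptor. Stat2 was at 648 and 613 in the WT libraries, 2198 and 1877 in those of Tfam+/-, 809 and 949 in those of Zbp1-/- and 881 and 850.5 in the double mutant. Irf9 was at 385 and 369 in the WT libraries, 1016 and 1088 in those of Tfam+/-, 443 and 463 in those of Zbp1-/- and 560.0 and 544 in the double mutant. As with Ifit1 and Ifit3, Tfam+/- stood clear of the other genotypes, but the distances were smaller. Log2 changes in Tfam+/- against WT were 1.69 for Stat2, 1.48 for Irf9, 3.46 for Irf7 and 4.81 for Usp18, so that Ifit1, Ifit3 and Ifit3b lay between Stat2 and Irf7. Usp18, with the largest change of the 11, was at 26.4 and 21.3 in the WT libraries, 761 and 625 in those of Tfam+/-, 35.3 and 44.9 in those of Zbp1-/- and 59.5 and 71.6 in the double mutant, again in the order WT, Zbp1-/-, double mutant, Tfam+/- with no overlap. In the double mutant against Tfam+/- the changes were -1.23 for Stat2, -0.93 for Irf9, -2.43 for Irf7 and -3.38 for Usp18. The interaction was called for 4 of the 11 (0.663% of all tested genes), all negative: Stat2 (-1.70), Irf9 (-1.19), Irf7 (-3.19) and Usp18 (-4.11). Each of these 4 calls was lost without either WT library or either library of the double mutant, and others besides. In Tfam+/- against WT the calls of Stat2 (1.65 to 1.73) and Irf9 (1.45 to 1.51) were lost without either WT library and that of Irf7 (3.15) without WT replicate 1, while Usp18 kept its call without any 1 library. In the double mutant against Tfam+/-, Stat2, Irf9 and Irf7 lost theirs without either library of the double mutant. In the fit of 6 the changes of these 4 genes were 1.53 to 4.66 in Tfam+/- against WT and -3.24 to -0.98 in the double mutant against Tfam+/-.

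Upstream of these, the receptor genes Ifnar1 (-0.17) and Ifnar2 (0.016) and the kinase genes Jak1 (-0.17) and Tyk2 (0.33) did not pass the threshold in Tfam+/- against WT, nor did Irf1, Irf3 and Socs1. Ifnar1 was the gene called higher in the double mutant than in Tfam+/-, by 0.65 ± 0.12 (limma, adjusted p 0.030), a call lost without any 1 of 5 libraries (0.52 to 0.68) and after rescaling (0.53, limma, adjusted p 0.062). Of 19 genes for type I and III interferons, 16 were listed at 0 in every library and the highest single value was 1.89 normalized counts, so that 0 were tested. A listed 0 does not show absence in this table, since Eif3j1, for a subunit of the general translation factor eIF3, was also listed at 0 in all 8 libraries. Over the 11 signalling genes the median change in Tfam+/- against WT was 0.47, beside -0.01 over all tested genes. The fit of 6 called 6 of them higher, against 15.4% of tested genes. It called 8 higher in Zbp1-/- against WT (34.3%), 11 in the double mutant against WT (44.8%), and 4 higher and 4 lower in the double mutant against Tfam+/- (43.6%). Of 10 signalling genes with a promoter window, Stat2 and Socs1 held the core.

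**Figure D5:**
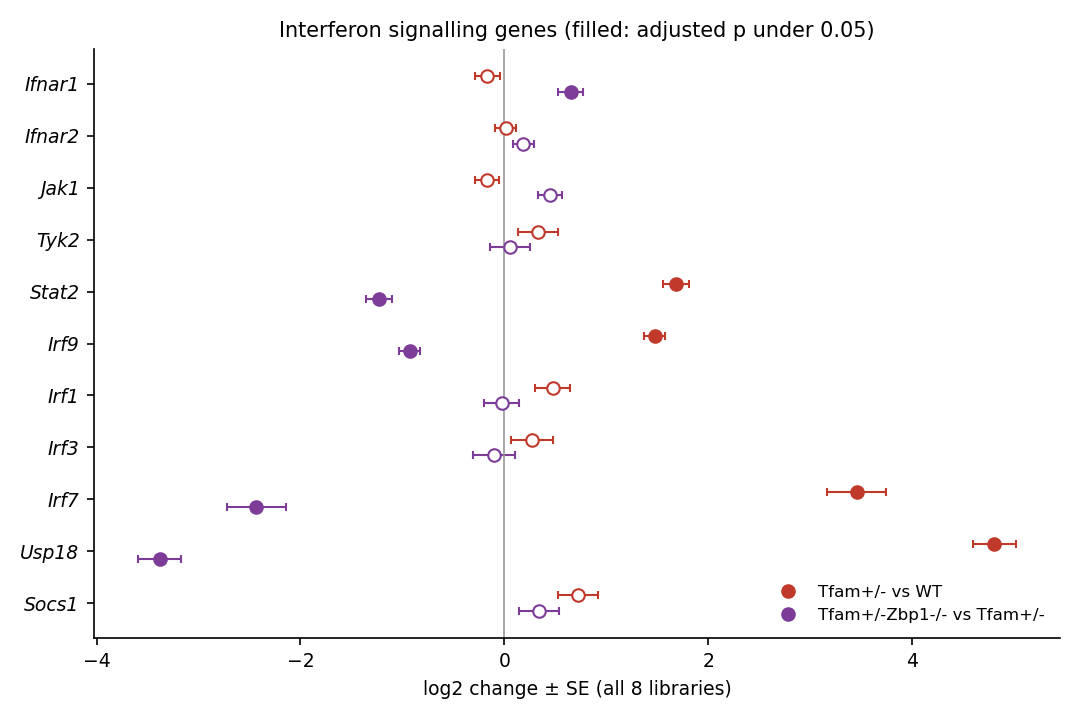
Log2 change ± SE (x axis, all 8 libraries) of 11 interferon signalling genes in Tfam+/- against WT (red) and in the double mutant against Tfam+/- (purple); filled symbols have an adjusted p under 0.05. Stat2, Irf9, Irf7 and Usp18 are filled in both, on opposite sides of 0, while receptors and kinases lie between -0.17 and 0.65.

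Genes that act with IFIT proteins, or make what they read, were looked at in the same way. Of 5 measured genes for capping and cap methylation, 0 were called in any of the 6 comparisons in all 8 libraries (limma), with at most 1 at an unadjusted p under 0.05 in each. In Tfam+/- against WT this was Cmtr1, the interferon-inducible enzyme that methylates the ribose of the first base, at 0.47 ± 0.12 for Tfam+/- over WT (limma, adjusted p 0.28) and 0.35 ± 0.05 in the other 6 libraries (adjusted p 8.6e-05). Of 13 tested subunits of eIF3, 0 were called in any comparison in all 8 libraries (limma), with at most 1 at an unadjusted p under 0.05 in each and changes of -0.43 to 0.31 in Tfam+/- against WT. The fit of 6 called 4 of the 13 higher in that comparison (15.4% of tested genes), 9 in the double mutant against WT (44.8%), and 6 higher and 1 lower in the double mutant against Zbp1-/- (23.4%).

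Among the tested genes outside the family, 7 of the 8 whose log2 values ran most closely with the mean of the members over the 8 libraries were Rtp4, Parp9, Irf9, Ptprb, Parp12, Gbp3 and Ddx58, with Pearson r from 0.996 to 0.984. These r describe 8 points that share the 2 high Tfam+/- libraries. Rtp4, an interferon-induced protein, was at 39.2 and 27.7 in the WT libraries, 348 and 446 in those of Tfam+/-, 52.7 and 35.7 in those of Zbp1-/- and 78.5 and 91.6 in the double mutant, the same order as Ifit1. Ddx58 encodes the RNA sensor RIG-I, Parp9 and Parp12 are ADP-ribosyltransferases, and Gbp3 is a guanylate-binding protein. The choice of these genes used the same libraries, so no count of their calls is given.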

How the data were processed

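The deposited table gives the authors' normalized counts per gene, a signal that is not whole, for 8 libraries of total RNA; not given in the sources used here are how reads were counted, whether strand was used and how values were scaled. Per the labels' design text, reads were aligned with STAR to mm10 with RefSeq genes; the submitters' processing notes name STAR 2.6.1a and Salmon, without their roles. Library totals were 16752835 to 18303036. Only 22.2% to 35.0% of low values came out as whole reads (within 0.01, up to 20 reads), so the raw depth is unknown and no count model was used.

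From these values log2(normalized count + 1) was computed and fitted over the 4 genotypes with limma 3.58.1 (R 4.3.3; 4 residual and 2.77 prior degrees of freedom, variance trend), for the 13267 of 24972 genes with a mean of at least 10. P-values of the 6 comparisons, which share libraries, were adjusted by Benjamini-Hochberg over all tested genes. Folds on this scale understate those of low genes. With 2 libraries against 2, exact permutation gives no p below 0.333, so none is given. The fit was also run on simulated data with independent noise for each gene and library. Such noise lacks the deviation shared by the libraries that stand apart, so that run cannot speak to it.

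The text names the members, other Ifit genes, genes of the lists for signalling, interferons, capping, eIF3 and cell type markers, neighbours within 5 genes, the 8 genes most correlated with the members' mean, and the targeted genes. A gene of the signalling list is not reported here and is left out of its counts. Members and lists were chosen with earlier results of these data known. Alternatives were another scaling (trimmed mean of M-values, computed directly, trimming 30% of log ratios and 5% of levels), pseudocounts of 5 and 0.1, no filter or a mean of at least 50, no variance trend, the compared genotypes alone, a replicate block, and each library left out. Added after seeing the data were a term shared by the libraries that stand apart (15.1 prior degrees of freedom) and a fit of the other 6 libraries (2 residual, 14.6 prior). Promoter windows are from RefSeq (97.7% of names matched its symbols) and transcripts from GENCODE M21, aligned with Biopython 1.88.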

Additional observations from a re-analysis of the deposited data

Results flagged for a closer look

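For 2 members the Tfam effect differed between cells with and without Zbp1 by a test of the difference itself. The interaction was -2.39 for Ifit3 and -2.28 for Ifit1 on the log2 scale (limma, adjusted p 0.015 and 0.047): Ifit3 went from a mean of 159 to 1042 normalized counts with Zbp1 and from 230.4 to 288 without it, and Ifit1 from 118 to 1123 with Zbp1 and from 135 to 255 without it.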

How the results depend on the processing

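The rises of Ifit1, Ifit3 and Ifit3b in Tfam+/- and their falls in the double mutant kept their direction in every setting run, and calls were lost in the settings named here and beside the results. With each library left out in turn, the number of members called was 1 to 3 in Tfam+/- against WT, 0 to 2 in the double mutant against WT, 0 to 3 against Tfam+/- and 0 to 2 for the interaction. In the double mutant against WT it was 1, and it became 0 after rescaling or without a filter. With the compared genotypes alone it was 4, where 5935 genes were called in all. For the interaction it was 2, and it became 1 without a filter, with a mean of at least 50 or without the variance trend. With the shared term it was 2 in Zbp1-/- against WT, 4 in the double mutant against WT and 4 against Zbp1-/-. That setting called 4717, 5634 and 3155 of the 13267 tested genes in these comparisons.

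The replicate numbers did not pair the libraries (correlations of same-numbered deviations from -0.70 to 0.06). With the number as a replicate block, 0 members were called in the double mutant against WT and 0 for the interaction, where limma called 0 genes in all and 1381 had an unadjusted p under 0.05; the member counts of the other comparisons did not change with it.

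Some changes that did not pass the threshold in all 8 libraries turned with single libraries, and others kept their direction. Ifit1 stayed at 1.08 to 1.14 in the double mutant against WT and at 0.73 to 1.12 against Zbp1-/-. The Ifit3b interaction stayed at -2.45 to -1.75. With each left out in turn, Ifit2 ran from -0.062 to 0.65 in Tfam+/- against WT, -0.50 to 0.075 in Zbp1-/- against WT and -0.19 to 0.52 in the double mutant against Tfam+/-. The shared term gave Ifit2 values of 0.11 and -0.15 in the last 2 of these and the other 6 libraries 0.075 and -0.19, and its interaction was -0.26 with either. In Zbp1-/- against WT, leaving out libraries moved Ifit1 from -0.015 to 0.38 and Ifit3b from -0.13 to 0.57. Ifit1bl2 ran from -0.70 to 0.16 in Tfam+/- against WT (0.16 in the other 6 libraries). Ifit1bl1 ran from -0.30 to 0.92 in Tfam+/- against WT, -0.26 to 0.16 in Zbp1-/- against WT, -0.29 to 0.93 in the double mutant against Tfam+/- and -0.24 to 0.98 for the interaction. The shared term gave it 0.36, -0.087 and -0.45 in the last 3 of these, and the other 6 libraries 0.16, -0.29 and -0.45. The cause was not tested.

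Over all genes the counts of calls moved far more: 97 in Tfam+/- against WT (2069 with the shared term, 2049 in the other 6 libraries, 28 with the block), 748 in the double mutant against Tfam+/- (6049, 5779 and 351) and 88 for the interaction (2240, 2534 and 0). Rescaling shifted the typical change by -0.11 to -0.12 in Zbp1-/- against WT and in the double mutant against WT and against Tfam+/-, and turned the split of the last from 440 higher and 308 lower to 323 and 429, that of the double mutant against WT from 119 and 64 to 91 and 93, and that of Zbp1-/- against WT from 119 and 22 to 63 and 23. Of the 8 genes most like the members by Pearson correlation, 4 were also among the 8 by Spearman correlation and 1 by distance. The planned count models were not run, since whole reads were not recovered. The number of libraries, 2 a genotype, limits every p-value here.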
